A study of Mus musculus with 18 samples.

Results

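The comparison was between 2 conditioned media, given to KPCA.B cells with a control short hairpin RNA (shControl, labelled Ndufa5 wild type). KPCA.B is a murine cell line labelled as high-grade serous ovarian cancer. Conditioned medium is culture medium that other cells have used and into which they have secreted proteins and metabolites. PCM was conditioned by proliferating cells given the vehicle only, and SCM by cells made senescent with cisplatin, a chemotherapy agent that forms platinum adducts on DNA. Each was mixed 1 part to 1 part with fresh high-glucose DMEM with 4% heat-inactivated serum, EGF at 2 ng/mL and insulin, transferrin and selenium, which both groups shared. The shControl cells gave 3 libraries in PCM and 3 in SCM, 6 of the 18 libraries of the series. The other 12 came from cells with hairpins against Ndufa5, a gene of respiratory complex I, in the same media, and are used below only for a comparison. Whether replicates were grown as separate cultures is not labelled. The p-values therefore describe only how these samples spread, and that spread may be technical.

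Senescent cells have stopped dividing for good but stay metabolically active, and they release cytokines, growth factors, proteases and lipids, together called the senescence-associated secretome. Neighbouring cells sense this mixture through surface receptors that signal to transcription factors such as NF-kB, SMADs and the products of immediate early genes. Cells under protein-damaging stress answer through heat shock factor, which binds repeats of the 5-base unit nGAAn, and restore folding with chaperones. The account below covers the genes outside the respiratory chain, the cytosolic ribosome and the interferon programme.

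Expression of each gene was given as FPKM, its fragment count corrected for gene length and for library depth. A difference is SCM minus PCM in the mean of log2(FPKM + 1), on which changes of weakly expressed genes come out too small. A gene was called at a limma adjusted p under 0.05. The filter, a mean over the 18 libraries of 1 FPKM or more, left 11084 genes, of which 61.9% were called, 31.7% higher and 30.2% lower in SCM; the counts within lists below are to be read against these shares. A 2-fold difference was much rarer, at 2.29% of genes for rises and 0.334% for falls. Depth was 15.2 to 38.9 M (M, mega) fragments per shControl library, replicate 2 of both groups being the deepest. Replicates correlated at r of 0.985 to 0.989. The deposited values set the median gene equal between libraries, and changes are given relative to that median gene. Scaling to the sum of FPKM instead moved the median of all genes by -0.50, scaling to fragment totals by -0.20, and the share of calls that were rises went from 51.2% to 5.9% and 26.4%. The most abundant 1066 to 1078 genes made up 50% of the fragments in PCM and the most abundant 703 to 736 genes did so in SCM. The part of that concentration in the results was not tested.

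Identity markers fitted the ovarian carcinoma label in part. Of the 15 epithelial and ovarian markers listed 6 stayed below 1 FPKM in every shControl library. These were Muc16 (at 0), Folr1 (at most 0.055), Cldn7 (0.076), Cldn4 (0.548), Epcam and Cdh1. Keratin genes were abundant, with Krt19 at 202, 214 and 187 FPKM in PCM and 426, 444 and 399.8 in SCM, and Pax8, the Mullerian lineage factor, reached 10.3 to 15.3 FPKM, while Epcam and Cdh1, the usual epithelial adhesion genes, were at most at 0.289 and 0.439 FPKM in every shControl library. The whole list of 15 epithelial and ovarian markers summed to 1235 to 1313 FPKM in PCM and 1951 to 2058 in SCM, with 7 of its 9 tested members called higher and Sox17 lower. Quantile normalization gave 3 higher and 3 lower, its median going from 0.35 to 0.04, and library totals gave 2 and 4. Pax8 was not called with fragment totals (0.10). Defining markers of immune cells were at or near 0: 6 of 10, with Ptprc among them, were at 0 in all 6 libraries, and only Cd68, which is also a lysosomal gene, passed the filter. Of 9 fibroblast markers 4 passed and all 4 were called higher, their list summing to 7.21 to 8.59 FPKM in PCM and 11.7 to 13.9 in SCM, with Thy1 at 0 and Col1a2 at most at 0.017. Endothelial markers (1 of 7 tested, summed 3.56 to 4.49 and then 5.67 to 8.48) and mesothelial markers (1 of 6 tested, 40.7 to 43.9 and then 59.6 to 63.9) were carried by Plvap and by Msln. The part of these markers in the results below was not tested.

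Among the genes ranked by size the largest rise was in a heat shock gene. Hspa1b (ENSMUSG00000090877, chromosome 17 from 34956436 to 34959238, minus strand of GRCm38), the stress-inducible Hsp70 chaperone, and Hspb1 (ENSMUSG00000004951, chromosome 5 from 135887919 to 135889563, plus strand), a small heat shock protein that holds unfolded proteins, are shown first by their promoters. Chordc1, an Hsp90 co-chaperone, and Hspa4, a nucleotide exchange factor of the Hsp110 family, are set beside them because they belong to the same list and fell. Each sequence runs from 250 bases before to 50 after the RefSeq start in GRCm38.p6, 5′ to 3′ on the gene's own strand, and capitals mark every match to GAANNTTC or TTCNNGAA, a pair of facing heat shock units read on both strands. The windows are chr17:34959189-34959488 for Hspa1b on the minus strand, chr5:135887669-135887968 for Hspb1 on the plus strand, chr9:18292017-18292316 for Chordc1 on the plus strand and chr11:53300430-53300729 for Hspa4 on the minus strand.
Hspa1b: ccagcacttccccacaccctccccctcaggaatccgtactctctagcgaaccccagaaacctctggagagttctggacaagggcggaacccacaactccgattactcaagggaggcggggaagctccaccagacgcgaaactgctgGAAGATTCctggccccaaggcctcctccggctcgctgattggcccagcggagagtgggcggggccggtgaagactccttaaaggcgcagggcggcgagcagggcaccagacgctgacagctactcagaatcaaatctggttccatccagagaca
Hspb1: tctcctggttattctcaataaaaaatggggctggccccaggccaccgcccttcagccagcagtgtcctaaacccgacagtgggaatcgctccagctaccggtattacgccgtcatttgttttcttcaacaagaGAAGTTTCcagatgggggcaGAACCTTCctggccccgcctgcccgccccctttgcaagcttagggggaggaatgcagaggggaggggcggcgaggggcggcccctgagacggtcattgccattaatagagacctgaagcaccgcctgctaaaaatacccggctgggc
Chordc1: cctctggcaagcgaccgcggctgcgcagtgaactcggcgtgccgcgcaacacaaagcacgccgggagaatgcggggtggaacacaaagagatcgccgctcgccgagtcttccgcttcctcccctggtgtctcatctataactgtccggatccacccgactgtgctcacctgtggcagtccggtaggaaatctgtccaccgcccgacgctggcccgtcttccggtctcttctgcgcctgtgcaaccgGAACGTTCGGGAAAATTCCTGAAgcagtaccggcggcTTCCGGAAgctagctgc
Hspa4: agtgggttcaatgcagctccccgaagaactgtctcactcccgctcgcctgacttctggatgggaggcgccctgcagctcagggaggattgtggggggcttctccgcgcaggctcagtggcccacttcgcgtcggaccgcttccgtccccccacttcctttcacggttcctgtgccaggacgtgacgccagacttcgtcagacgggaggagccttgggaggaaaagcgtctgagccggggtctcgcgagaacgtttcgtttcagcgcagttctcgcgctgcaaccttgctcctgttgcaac

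The match in Hspa1b begins 104 bases before the start, and those in Hspb1 begin 117 and 97 bases before it. Chordc1 has 5 matches, 4 of which overlap around the start itself, and the Hspa4 window has 0. A match lies in 15.1% of the 32851 RefSeq promoter windows and in at least 1 window of 17% of the genes with an entry. Of the 26 listed heat shock genes 20 had an entry, and 11 of those had a match. Of the tested genes with a match 5 were called higher, 2 lower and 2 not called, and of those without 4 were called higher, 4 lower and 1 not called. Only 3 of all windows have 5 or more matches, Chordc1 among them.

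Hspa1b read 1.59, 1.24 and 0.985 FPKM in PCM and 21.3, 19.4 and 18.7 in SCM, a difference of 3.20 ± 0.16 (SE; limma adjusted p = 2.35e-10). Its near-identical copy Hspa1a had 2, 0 and 0 fragments in PCM and 11, 33 and 7 in SCM, so nearly all of the shared signal was assigned to Hspa1b, and how fragments were divided between the copies is uncertain. Hspb1 went from 5.90, 6.04 and 5.72 to 37.4, 35.4 and 43.1 FPKM. Every SCM library stood above every PCM library for both genes. Cryab, a small heat shock protein abundant in the lens and in muscle, went from 26.8, 27.4 and 23.6 to 76.2, 78.3 and 70.3 FPKM (1.497 ± 0.06).

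In the whole list of cytosolic chaperones and their regulators, 14 of 24 tested genes were called higher and 7 lower, with a median of 0.33 against 0 for all genes, which quantile normalization turned to -0.02. The constitutive Hsp70 gene Hspa8 rose by 1.15 (mean FPKM 115 to 256) and Hsp90ab1 by 0.82 (665 to 1174; -0.00 with quantile normalization), the latter among the 10 largest gains in FPKM of the genes ranked, which left out the passed-over families. The co-chaperone Fkbp4 rose by 0.61. Close relatives went the other way: Hspa4 had 81.9, 77.4 and 81.1 FPKM in PCM and 45.4, 42.4 and 45.7 in SCM (-0.83 ± 0.04, adjusted p = 4.12e-11), and Chordc1 differed by -0.55, which became -0.12 and was not called with GC and length trends removed. The inducible Hsp90 gene Hsp90aa1 was called lower at -0.24, a call lost with GC and length trends removed (-0.03).

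**Figure D1:**
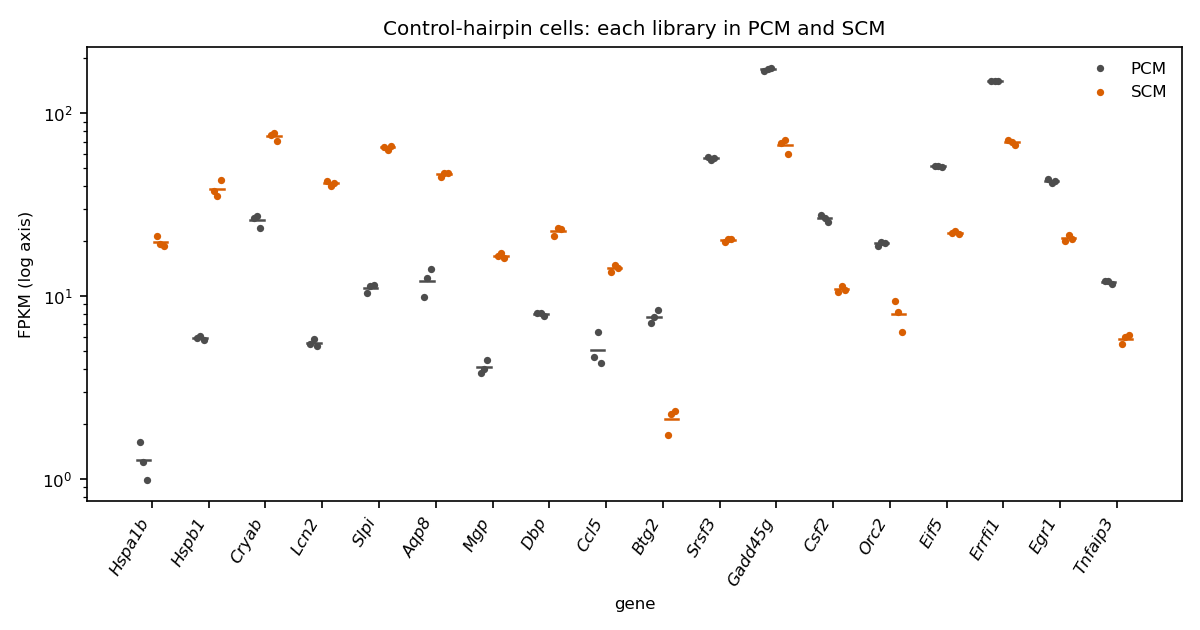
FPKM (log axis) of 18 genes described in the text, in each shControl library in PCM (grey) and SCM (orange); bars are group means, n = 3 libraries each. In none of the 18 do the groups overlap, with the first 9 genes higher and the other 9 lower in SCM. The genes were picked, most from a ranking that required groups without overlap. Of all genes tested 33.8% lay higher and 32.3% lower in SCM without overlap.

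Other protein-quality machines divided by subunit. In the chaperonin CCT with its partner prefoldin, which fold actin and tubulin, 9 of 14 genes were called higher and 5 lower. Pfdn6 (0.93), Pfdn5 (0.84), Cct7 (0.67) and Cct5 (0.61) rose, while Pfdn4 (-0.45), of the same prefoldin hexamer, fell. The proteasome had 19 genes higher and 8 lower of 36 (median 0.17, turned to -0.04 by quantile normalization, as was the CCT list's 0.36 to -0.04). Its catalytic core genes Psmb6 and Psmb5 rose by 0.85 and 0.82. The alternative caps split: Psme1, of the interferon-linked PA28 ring, rose by 0.78 (FPKM 13.8, 12.02 and 12.4 and 24.5, 22.9 and 20.6), whereas Psme3, the nuclear PA28 gamma, went from 62.5, 66.1 and 68.02 to 38.6, 38.9 and 40.02 (-0.73 ± 0.05) and Psme4, the PA200 cap, fell by 0.70 on the log2 scale. Cullin ubiquitin ligases had 11 of 22 genes lower and 5 higher, and 8 and 7 with GC and length trends removed (median -0.20, then -0.06). Their scaffold Cul1 went from 17.5, 17.5 and 16.7 to 9.04, 8.49 and 10.4 FPKM (-0.83). The ubiquitin-specific proteases, which remove ubiquitin, had 24 of 41 lower and 5 higher (median -0.24), with Usp16 at -0.85 and Usp1 at -0.72.

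Lysosomal genes rose as a group. Of 33 tested hydrolases and membrane proteins 26 were called higher and 2 lower, and their median was 0.47. It stayed above the median gene under each scaling tried, at 0.28 with quantile normalization and 0.36 with GC and length trends removed. With library totals, where the median gene was at -0.50, 4 were called higher and 13 lower. Cd68, a lysosomal glycoprotein best known from macrophages, read 2.10, 2.01 and 2.20 FPKM in PCM and 5.92, 6.96 and 6.74 in SCM (1.28 ± 0.20, adjusted p = 4.55e-05), while Ptprc, Itgam and Adgre1 of the immune list were at 0 in all 6 libraries. The aspartic protease gene Ctsd went from 171, 177 and 167 to 296, 312 and 307 FPKM, and the cholesterol exporter gene Npc2 rose by 0.81. The exceptions were Tpp1, a tripeptidyl peptidase (-0.44), and Lamp2, a membrane protein needed for autophagosome fusion (-0.25, but 0.13 and called higher with GC and length trends removed).

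Genes of the proton pump that acidifies lysosomes were divided. Of 16 V-ATPase genes 7 were called higher and 5 lower (median 0.04, -0.13 with quantile normalization). Atp6v1f rose by 0.79 and Atp6v1h, a regulatory subunit of the same peripheral sector, fell from 12.03, 12.4 and 12.7 to 6.06, 6.38 and 5.91 FPKM (-0.91). Autophagy genes were also split, 9 higher and 7 lower of 28 (median 0.02, at -0.01 relative to the median gene under library totals). Those counts were near the shares of all genes, 31.7% higher and 30.2% lower. Among the rises were Map1lc3a (0.93) and Gabarap (0.52), ubiquitin-like proteins that coat autophagosomes, and among the falls Atg3 (-0.59), Atg5 (-0.57) and Rb1cc1 (-0.57), which act in attaching them or in starting autophagosomes. Gabarap was -0.09 with library totals, above the median gene's -0.50.

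Genes for secreted proteins held several of the largest rises. Lcn2 (ENSMUSG00000026822, chromosome 2 from 32384633 to 32388252, minus strand), which binds bacterial iron carriers, read 5.45, 5.83 and 5.35 FPKM in PCM and 42.9, 40.1 and 41.6 in SCM. Slpi (ENSMUSG00000017002, chromosome 2 from 164354070 to 164389095, minus strand), an inhibitor of neutrophil elastase made at mucosal surfaces, read 10.4, 11.4 and 11.6 and 65.6, 63.3 and 66.6. The 3 SCM libraries lay close together and far above PCM for both. Their differences were 2.70 ± 0.08 and 2.45 ± 0.09 (adjusted p = 1.24e-12 and 5.49e-12). Of the 30 listed complement and defence genes only 12 passed the filter on FPKM, 10 of them called higher and 0 lower (median 0.68, 0.31 with quantile normalization). Wfdc2, a protease inhibitor used as an ovarian cancer marker, rose from 142, 137 and 139 to 279, 273 and 279 FPKM, and the galectin gene Lgals1 was among the 10 largest gains in FPKM of the genes ranked (mean 1364 to 2571, 0.91, but 0.18 with quantile normalization).

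Mgp, matrix Gla protein, a secreted inhibitor of calcification, went from 3.803, 4.002 and 4.47 to 16.5, 17.2 and 16.1 FPKM (1.79 ± 0.09). Aqp8, a channel for water and hydrogen peroxide, went from 9.84, 12.5 and 14.1 to 44.9, 46.9 and 47.3 (1.86 ± 0.09). Among proteases and inhibitors 13 of 22 tested genes were called higher and 4 lower (median 0.30, 0.03 with quantile normalization), with Cst3, a cysteine protease inhibitor, at 0.69 and the intracellular serpin gene Serpinb6b at -0.67. S100 proteins and annexins, calcium-binding proteins of which some are secreted, had 12 of 16 higher and 2 lower (median 0.52), but 6 higher and 6 lower with quantile normalization (0.08). S100a1 rose by 0.79 and Anxa6 by 0.77, while Anxa1, an inhibitor of inflammation, fell from 64.96, 60.7 and 63.9 to 48.1, 47.2 and 44.1 FPKM (-0.44).

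Chemokine and cytokine genes rose in most cases, with 2 colony-stimulating factors among the exceptions. Of the 31 listed genes 18 passed the filter, and 12 of them were called higher and 4 lower (median 0.65, 0.38 with GC and length trends removed). Ccl5, a chemoattractant for T cells, read 4.64, 6.34 and 4.29 FPKM in PCM and 13.5, 14.8 and 14.3 in SCM (1.33 ± 0.17). Il33, an alarmin stored in the nucleus, rose by 1.26 (mean 4.34 to 11.7), and Cxcl2, which attracts neutrophils, by 1.16 (3.49 to 9.13). Ccl7 rose by 1.01. In the opposite direction Csf2, which encodes GM-CSF, went from 27.7, 26.8 and 25.6 to 10.5, 11.4 and 10.8 FPKM (-1.22 ± 0.13, adjusted p = 1.07e-06), and Csf3, which encodes G-CSF, differed by -0.65 at a mean of 2.18 to 1.04.

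The NF-kB pathway, which drives many cytokine genes, moved largely downward. 13 of 25 tested genes were called lower and 6 higher, with a median of -0.25, and it stayed below the median gene under each scaling. Tnfaip3, the A20 feedback inhibitor, read 12.1, 12.1 and 11.7 FPKM in PCM and 5.45, 5.97 and 6.09 in SCM (-0.92 ± 0.06). Map3k14, the NIK kinase of the noncanonical branch, fell by 0.77 on the log2 scale, Traf1, an adaptor of TNF receptors, by 0.74 and the inhibitor gene Nfkbie by 0.73. The canonical subunit gene Rela went from 74.3, 78.4 and 72.3 to 56.1, 56.5 and 57.2 FPKM (-0.40) and Nfkbia from 117, 121 and 108 to 89.9, 90.8 and 94.6 (-0.32). Among the rises was Bcl3, a nuclear co-regulator (0.56, and 0.16 with no call once GC and length trends were removed). Cytokine receptors were evenly split, with 9 higher and 9 lower of 24 (median 0.06, -0.07 with GC and length trends removed), and Il6ra and Il1r1, the receptors for interleukins 6 and 1, differed by -0.80 and -0.57.

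**Figure D2:**
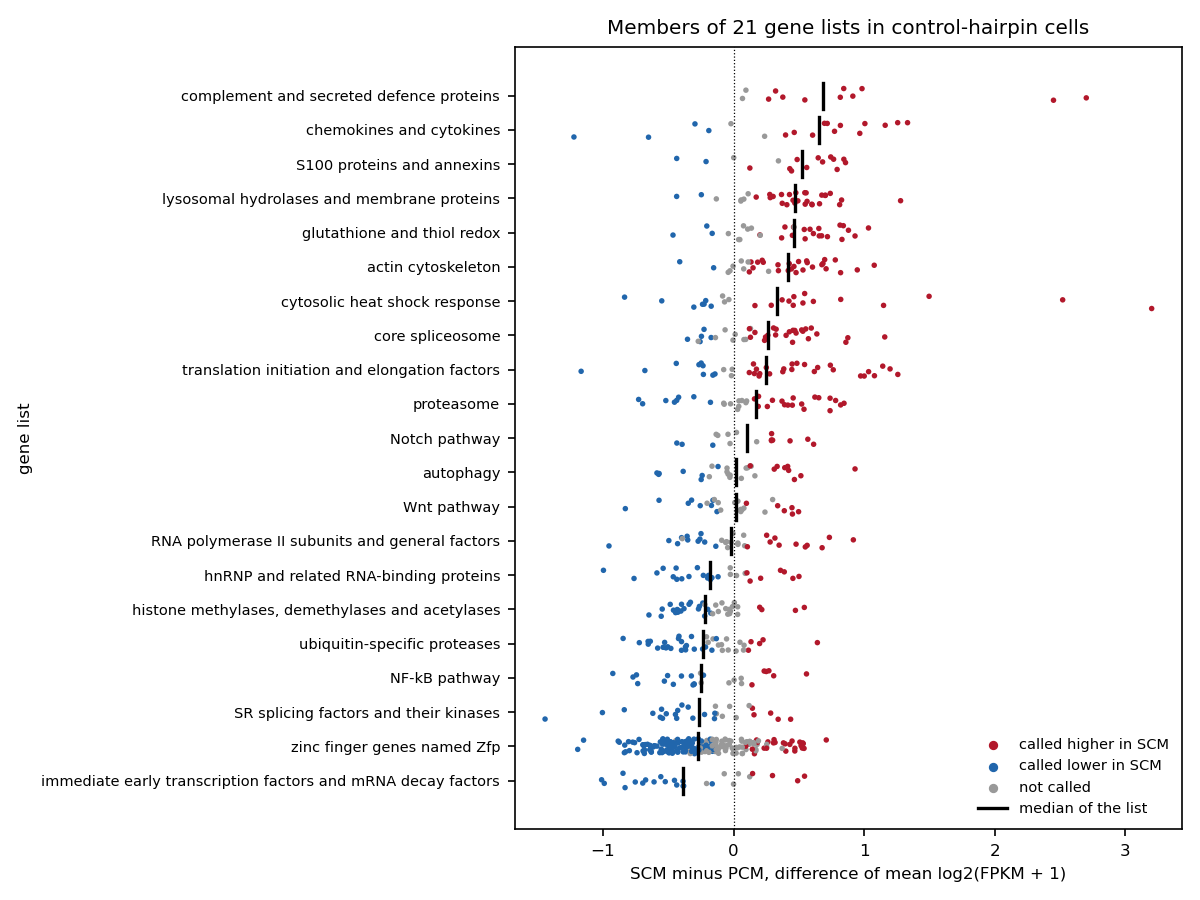
Each point is 1 tested gene of the list named on the vertical axis, placed by its SCM minus PCM difference in mean log2(FPKM + 1), red if called higher, blue if called lower and grey if not called; black bars are list medians, over 21 of the lists. Defence, chemokine and lysosomal genes lie mostly to the right, with medians of 0.68, 0.65 and 0.47, and immediate early genes to the left (-0.39); quantile normalization takes the heat shock, proteasome and translation factor medians below the median gene, and removal of GC and length trends takes the hnRNP median to 0.01, the Notch median to -0.01 and the Wnt median to -0.01.

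Immediate early genes, which growth factors switch on within minutes and most of which encode transcription factors, were lower in SCM in most cases. Of 25 tested genes, which include some mRNA decay factors, 16 were called lower and 4 higher, at a median of -0.39 that moved further down, to -0.60, with GC and length trends removed. Egr1 read 43.9, 41.8 and 42.7 FPKM in PCM and 19.9, 21.7 and 20.6 in SCM (-1.01 ± 0.04), Jun 36.4, 36.1 and 33.4 and 16.7, 17.9 and 17.2 (-0.99), and Myc 137, 134 and 127 and 71.3, 74.7 and 73.9 (-0.85). All 3 genes were lower in every SCM library than in any PCM library. Fos, the partner of Jun, differed by -0.45, and Fosl1, the most abundant Fos relative here, went from 260.1, 262 and 250.5 to 205, 197 and 191 FPKM. Among the 4 rises was Nr4a1, an orphan nuclear receptor (0.54).

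Genes that ERK signalling induces to limit itself also fell in part. Errfi1, an inhibitor of the EGF receptor, went from 150.2, 151 and 150.4 to 71.01, 69.995 and 66.8 FPKM (-1.11 ± 0.03, adjusted p = 8.78e-13), among the 10 largest losses in absolute FPKM. In the list of MAPK feedback genes 9 of 21 were called lower, Spry2 (-0.68) and the phosphatase gene Dusp8 (-0.64) among them, and 4 higher, with Ier3 (0.77, mean 192 to 327) and Etv5 (0.75). Of 16 EGF family ligands, receptors and sheddases 9 were called lower and 2 higher (median -0.16, -0.06 with GC and length trends removed). The ligand genes Hbegf and Areg both fell, Hbegf from 126, 123 and 114 to 71.9, 72.8 and 72.6 FPKM and Areg from 22.04, 20.4 and 23.7 to 15.7, 16.3 and 17.8. Rhbdf1, a pseudoprotease that escorts the sheddase ADAM17, rose by 0.59.

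Growth factor genes of other families went both ways. Tgfb1, which encodes TGF-beta, read 22.9, 22.3 and 18.9 FPKM in PCM and 46.3, 44.6 and 45.8 in SCM (1.06 ± 0.05), and Bmp1, a protease that matures procollagen, rose by 0.97. The BMP target genes Id1 and Smad6 rose by 0.78 and 0.63, while the receptor genes Acvr2a and Bmpr1a and the ligand gene Bmp4 differed by -0.65, -0.47 and -0.62. Over the whole TGF-beta and BMP list 11 genes were called higher and 16 lower of 33 (median -0.17, -0.05 with GC and length trends removed). Igfbp4, which sequesters insulin-like growth factors, went from 151, 154 and 136 to 302, 307 and 299 FPKM. In the insulin, PI3K and mTOR list 12 of 31 were higher and 10 lower, with a fall in the kinase gene Pik3cb (-0.73).

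Wnt, Notch, Hippo and hypoxia genes moved in both directions. Wnt genes had 6 higher and 8 lower of 26, with Fzd6, a frizzled receptor, going from 8.19, 8.57 and 7.90 to 4.77, 3.67 and 4.19 FPKM. Notch genes had 7 higher and 3 lower of 16, and Rbpj, the DNA-binding partner of Notch, differed by -0.39. The Hippo list had 6 higher and 9 lower of 24, with Tead2 at 0.75. The hypoxia list had 9 higher and 5 lower of 19, with P4ha1, a collagen prolyl hydroxylase, at 0.67 and Hif1an, which modifies HIF, at -0.36.

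Splicing genes separated by class. Of 28 SR proteins, their kinases and relatives, which choose splice sites, 17 were called lower and 5 higher. Srsf3 (ENSMUSG00000071172, chromosome 17 from 29032628 to 29043373, plus strand) read 57.5, 55.9 and 57.3 FPKM in PCM and 19.9, 20.6 and 20.46 in SCM, a difference of -1.44 ± 0.04 (adjusted p = 9.02e-13). Tra2b went from 24.1, 22.01 and 24.7 to 11.3, 11.6 and 10.9 (-1.004), and Srsf1 and Tra2a differed by -0.84 and -0.62. The core spliceosome moved the other way, with 24 of 37 genes higher and 5 lower (18 and 9 with quantile normalization). Its Sm and Lsm ring genes Snrpd2 (25.2 to 57.6 in mean FPKM, 1.16), Snrpg (0.87) and Lsm4 (0.86) rose most. The list medians were -0.27 for SR genes and 0.26 for the core, and with GC and length trends removed -0.07 and 0.26. The SR genes tested had a median of 43.6% GC and 7411 bases of exon, against 49.8% and 3442 bases for the core.

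Other families of RNA-binding genes also had more falls than rises. The hnRNP list had 16 of 27 lower and 7 higher, its median going from -0.18 to 0.01 with GC and length trends removed. Hnrnpm went from 37.4, 35.03 and 39.8 to 18.6, 17.3 and 18.8 FPKM and Hnrnpu, which binds nuclear RNA and chromatin, differed by -0.76. DEAD and DEAH helicases had 27 of 47 lower, Ddx3x (-1.03, mean 83.3 to 40.4), Ddx21 (-0.97) and Ddx42 (-0.89) foremost, and 12 higher, with Dhx34, which acts in nonsense-mediated decay, at 0.88. Of 34 Rbm genes 17 were lower and 4 higher. Sfpq and Pspc1, proteins of nuclear paraspeckles, read 38.5, 38.1 and 35.4 and 5.60, 5.37 and 5.01 FPKM in PCM and 17.95, 18.7 and 15.1 and 1.63, 2.10 and 1.87 in SCM. Neat1, the RNA that builds paraspeckles, read 11.9, 11.9 and 12.8 and 6.98, 6.26 and 6.97 (-0.77 ± 0.05). Nono, the third protein of that body, was called higher (0.22, but -0.12 with quantile normalization), and was looked up after the values of the others were seen. Malat1, a neighbour of Neat1 on chromosome 19 that marks nuclear speckles, rose from 78.9, 86.5 and 92.2 to 198, 163 and 184 FPKM (1.07 ± 0.14).

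**Figure D3:**
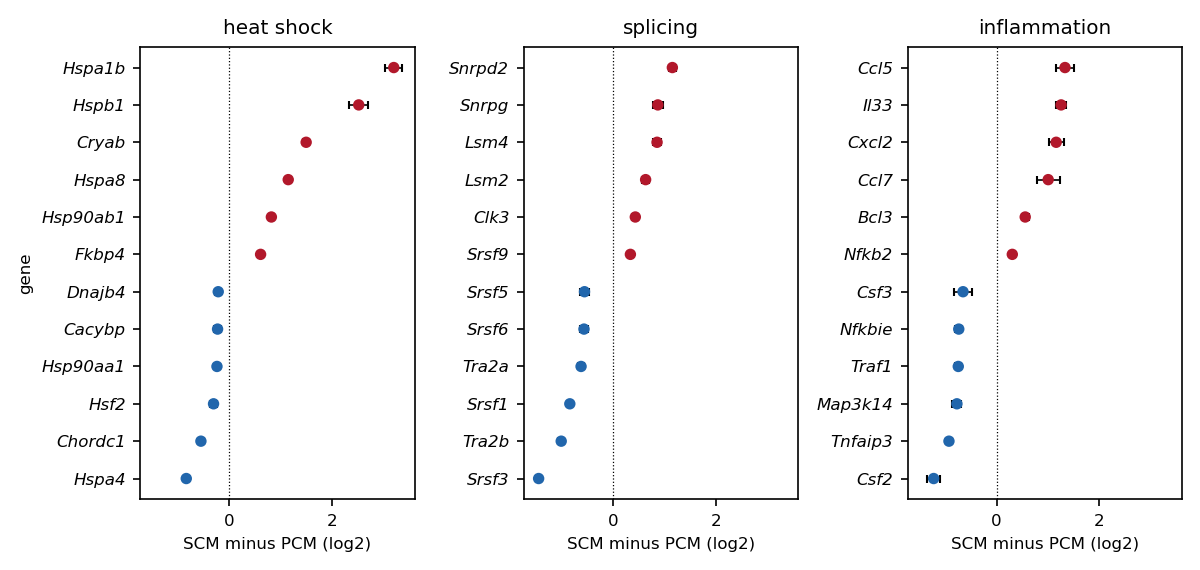
SCM minus PCM difference (log2 scale, horizontal axis) with its SE from limma for 12 members each of the heat shock list, the SR and core splicing lists and the cytokine and NF-kB lists, red if called higher and blue if called lower. For each panel 6 genes that rose and 6 that fell were picked, from Hspa1b at 3.20 to Srsf3 at -1.44. They are not in every case those of largest difference, and their balance says nothing of the other members.

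Most translation factor genes were called higher, a count that depended on the scaling. Of 37 factors 25 were called higher and 9 lower (median 0.25, turned to -0.11, with 13 higher and 19 lower, by quantile normalization). The elongation factor genes Eef1a1 and Eef2 gained more FPKM than any other gene outside the passed-over families, Eef1a1 with 3086, 3138 and 3144 in PCM and 6851, 6957 and 6871 in SCM and Eef2 with 1448, 1485 and 1467 and 3349, 3475 and 3276. Their differences of 1.14 and 1.198 were 0.16 and 0.24 with quantile normalization. Within the eIF3 complex Eif3f (1.26) and Eif3k (1.08) rose while Eif3a, its largest subunit, differed by -0.27, and by -0.03 with no call once GC and length trends were removed. Eif5, which triggers GTP hydrolysis at the start codon, fell from 51.4, 51.5 and 50.6 to 22.03, 22.7 and 21.99 FPKM (-1.17 ± 0.04), and Eif4g2, a scaffold for cap-independent initiation, by 0.68 on the log2 scale. Cytosolic tRNA synthetases were split, 11 higher and 7 lower of 20 (median 0.28, -0.03 with quantile normalization). Qars (0.78) and Vars (0.62) rose and Lars (-0.66) and Dars (-0.58) fell. Ribosome biogenesis genes had 9 higher, with Nhp2 at 0.80, and 13 lower of 29, with Nop58, a core protein of box C/D small nucleolar particles, at -0.77. Lars2, the mitochondrial leucyl synthetase gene, rose by 1.90 but varied between libraries (33.1, 41.8 and 24.6 FPKM, then 111, 163 and 106). Gm23935, a short gene model treated here as ribosomal RNA-like, took 0.09 to 0.16% of fragments in PCM and 0.36 to 0.52% in SCM. Replicate 2 was the highest in both media for Lars2 and for Gm23935. Whether the Lars2 fragments came from its own transcript was not tested.

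Chromatin genes fell more often than they rose. Of 39 histone methylases, demethylases and acetylases 21 were called lower and 4 higher, at a median of -0.22 (-0.15 with GC and length trends removed). The acetylase gene Kat2b went from 5.85, 5.94 and 5.42 to 2.96, 3.31 and 3.65 FPKM, Suz12 of the Polycomb complex differed by -0.55, and Ehmt2, a histone H3 methylase, rose by 0.54. Among remodelers, 14 lower and 8 higher of 30, the ATPase gene Smarca5 fell from 14.4, 13.2 and 13.7 to 7.38, 7.10 and 8.35 and Smarcd2, a SWI/SNF accessory subunit, rose by 0.62. The linker histone gene H1fx rose from 10.97, 11.99 and 9.56 to 27.8, 30.3 and 29.4 FPKM, and the architectural chromatin gene Hmga1 from 1397, 1442 and 1288 to 2605, 2639 and 2650.0 (0.94, but 0.15 with quantile normalization). H3f3b, which encodes the replacement histone H3.3, was among the 10 largest losses in FPKM of the genes ranked (268, 274 and 285, then 204, 202 and 208).

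Zinc finger genes, the largest family listed, had far more falls than rises. Of 224 tested Zfp genes 129 were called lower and 25 higher, with a median of -0.27 and of -0.13 with GC and length trends removed. Zfp617 went from 9.79, 9.24 and 9.79 to 3.64, 3.32 and 3.97 FPKM and Zfp719 from 5.50, 4.96 and 5.64 to 1.55, 1.83 and 2.27. Zfp341, an activator of the STAT3 gene, went against the family (0.71). RNA polymerase II subunits and general factors were even, 11 higher and 11 lower of 33, with Taf10 at 0.92 and Gtf2h1, of the TFIIH complex, at -0.95. Those counts were near the shares of all genes, 31.7% higher and 30.2% lower.

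Circadian clock genes moved in both directions. Dbp, an output gene of the clock, read 8.04, 8.05 and 7.81 FPKM in PCM and 21.3, 23.5 and 23.2 in SCM (1.40 ± 0.07, adjusted p = 2.53e-10). The activators of the clock fell, Arntl from 10.4, 8.59 and 9.47 to 5.31, 5.17 and 5.45 FPKM and Clock by a log2 of -0.58, as did the repressor gene Nr1d2 (-0.59). In the list of 17 tested genes 4 were called higher and 6 lower. The labels give no time of day or of harvest.

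Redox genes rose in most cases, and the ferritin genes rose beside them. Of 30 glutathione and thiol redox genes 19 were called higher and 3 lower (median 0.46, 0.27 with quantile normalization). The glutathione transferase gene Gstm1 read 77.2, 78.8 and 76.2 FPKM in PCM and 161, 155 and 162 in SCM, Gpx4, which reduces lipid peroxides, rose by 0.88, and Prdx2 by 0.93. The falls included Srxn1, which repairs peroxiredoxins (-0.46). Both ferritin storage genes were among the 10 largest gains in FPKM of the genes ranked, Fth1 from 1798, 1789 and 1726 to 3735, 3579.9 and 3599 (a log2 of 1.04, but 0.05 with no call under quantile normalization) and Ftl1 from 865, 866 and 854 to 1916, 1861 and 1952 (1.15, but 0.22 in that setting), while Ncoa4, the receptor that delivers ferritin to lysosomes, fell (-0.50). Aldh3a1, an aldehyde dehydrogenase of epithelia, rose from 10.5, 9.08 and 9.004 to 27.5, 28.4 and 28.1 FPKM.

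Metabolic genes moved in different directions at different steps. Phgdh, the first enzyme of serine synthesis, went from 446, 452 and 417 to 843, 874 and 831 FPKM (0.95 ± 0.03), and the serine, one-carbon and amino acid supply list had 15 of 23 higher and 5 lower (median 0.28, -0.03 with quantile normalization). Among its falls were 4 amino acid transporters, Slc7a11 (-0.34), Slc38a2 (-0.32), Slc1a5 (-0.30) and Slc7a1 (-0.25), of which Slc7a11 (-0.00) lost the call with GC and length trends removed. In the pentose phosphate and nucleotide list 16 of 32 were higher, with Tkt, transketolase, at 0.86 and Cad, which opens pyrimidine synthesis, at 0.82, and 10 lower, but 7 and 11 with quantile normalization. Prps1l3, a copy of Prps1, fell from 14.4, 14.8 and 15.2 to 5.02, 5.03 and 5.99 FPKM, and its fragments may be shared with the parent gene. Fatty acid synthesis genes had 10 higher, with Tecr (1.12) and Fasn (36.4, 37.5 and 37.8, then 62.97, 66.8 and 64.3 FPKM) foremost, and 3 lower of 22 (median 0.15, -0.01 with quantile normalization). The fatty acid oxidation and peroxisome list had 12 higher and 9 lower of 34, against 31.7% and 30.2% of all genes. The thiolase genes Acaa2 and Acaa1a rose by 0.78 and 0.70, but with library totals (0.19 and 0.11) both calls were lost. Pex13 and Pex2, which act in peroxisome import and assembly, fell (-0.78 and -0.71).

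Actin cytoskeleton genes rose in most cases. Of 35 tested actin genes 26 were called higher and 2 lower (13 each way with quantile normalization), and the median of 0.42 stayed above the median gene under each scaling (0.07 with quantile normalization, 0.23 with GC and length trends removed). Capg, which caps filament ends, read 21.02, 22.1 and 22.6 FPKM in PCM and 48.5, 45.9 and 47.6 in SCM, and Tagln2 rose by 0.95. Tubb5, a beta tubulin, went from 193, 196 and 188 to 443, 450.3 and 448. Krt19 rose by 1.07, while Tjp1, the scaffold of tight junctions, fell from 31.6, 29.3 and 29.2 to 17.2, 17.1 and 18.6 FPKM (-0.74 ± 0.04).

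Arrest, death and DNA repair genes went both ways. The arrest list and the licensing list were near the shares of all genes, 31.7% higher and 30.2% lower. Btg2 (ENSMUSG00000020423, chromosome 1 from 134075170 to 134079120, minus strand), an antiproliferative gene that p53 induces, had the largest fall among the genes ranked, from 7.11, 7.70 and 8.35 to 1.74, 2.27 and 2.36 FPKM (-1.48 ± 0.15, adjusted p = 4.18e-07), and Gadd45g, a stress gene of the same list, went from 169, 175 and 178 to 68.4, 71.6 and 60.1 (-1.38 ± 0.06). Cdkn2a, which encodes the cell-cycle inhibitor p16 and ARF, rose from 192, 196 and 186 to 297, 307 and 302 (0.66, and 0.07 with no call under quantile normalization). Over 29 p53 targets and arrest genes 9 were called higher and 10 lower. In the BCL2 and caspase list 9 were higher, with Bok (0.85) and the pore-former Gsdmd (0.75), and 11 lower of 24, with Casp4, which senses bacterial lipopolysaccharide (-0.92), and Bcl2 (-0.59). Orc2, of the origin recognition complex, went from 18.9, 19.9 and 19.5 to 9.35, 8.15 and 6.39 FPKM (-1.200 ± 0.10) and Orc5 differed by -0.66, while the polymerase delta genes Pold1 and Pold2 rose by 0.96 and 0.86. The licensing and fork list as a whole had 11 higher and 11 lower of 37, and the homologous recombination list 5 and 10 of 30 (median -0.13, 0.02 with GC and length trends removed), with Nbn, of the break-sensing MRN complex, at -0.67.

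The direction of a gene's difference went with the base composition and length of its transcript. In the quintile of genes with the lowest exon GC content (18.1 to 43.9%) 6.96% were called higher and 61.2% lower, and in the quintile with the highest (55.6 to 86.2%) 60.3% were called higher and 6.09% lower. In the quintile with the shortest summed exon length (up to 1997 bases) 41.6% were called higher and 7.81% lower, and in the quintile with the longest (from 7328 bases) 16.7% and 50.2%. Genes in both the lowest GC quintile and the longest quintile were lower in 74% of 701 cases. Across genes, which are not independent replicates and share 6 libraries, the rank correlation of the difference was 0.53 with GC content and -0.32 with exon length. After removal of GC and length trends within each library, 2860 genes were called higher and 2721 lower of 11074. In that fit 2 of the 30 genes ranked by size moved by over 1.5 times, H1fx from 1.35 to 0.81 and Ptms, an acidic nuclear protein, from 1.41 to 0.91. Hspa1b was 2.89, Lcn2 2.45, Hspb1 1.98, Btg2 -1.55, Gadd45g -1.88 and Srsf3 -1.12. How RNA quality or library preparation bore on these trends was not tested.

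**Figure D4:**
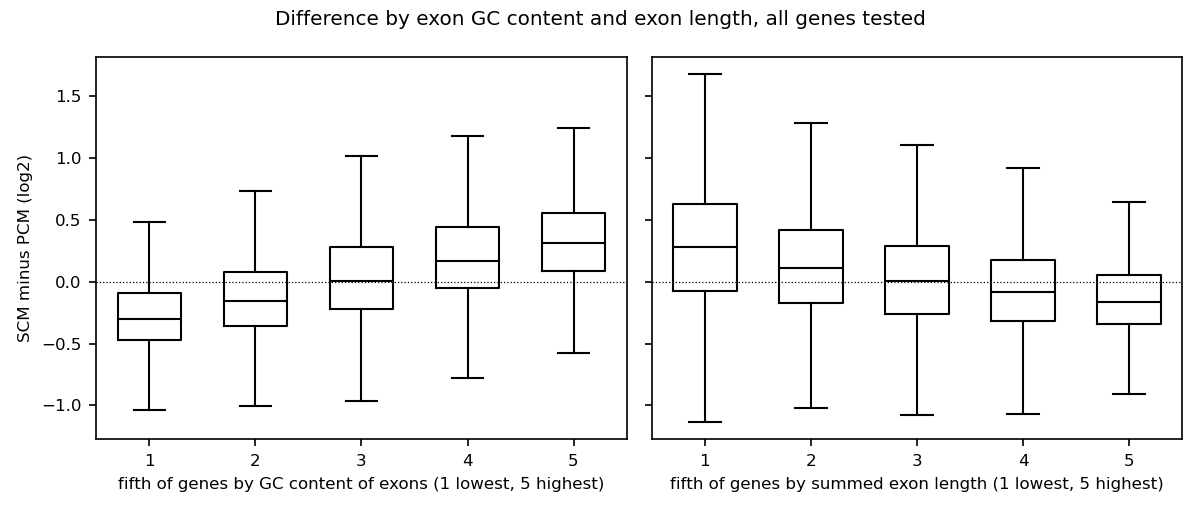
SCM minus PCM difference (log2, vertical axis) of all genes tested, split into quintiles by exon GC content (left) and by summed exon length (right); boxes span the quartiles, the line is the median and whiskers reach 1.5 interquartile ranges, with points beyond them not drawn. Medians climb from -0.30 to 0.31 with GC content and drop from 0.28 to -0.16 with length.

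The genes with the largest differences here responded less in the cells with hairpins against Ndufa5. Ndufa5 itself read 15.2 to 22.1 FPKM in shControl in PCM, 6.23 to 6.85 with shNdufa5_1 and 16.8 to 18.7 in the group labelled shNdufa5_2, overlapping shControl. In SCM it read 20.9 to 26.2 in shControl, 6.23 to 6.78 with shNdufa5_1 and 14.6 to 20.2 in the group labelled shNdufa5_2, below shControl without overlap. Hspa1b, at 3.20 in shControl, differed by -0.11 between media with shNdufa5_1 (adjusted p = 0.609) and by 0.40 in the libraries labelled shNdufa5_2 (adjusted p = 0.0903), and the test of the difference of responses gave -3.06 (adjusted p = 2.6e-08). Lcn2 rose in all, by 1.88 and 2.22. Csf2 parted the hairpins, at 0.52 with shNdufa5_1 and -0.93 under the shNdufa5_2 label, a contrast between hairpins that was not tested. Aldh3a1 and Rdm1 did not pass the test of a different response (1.51 and 0.98, 1.31 and 0.94). Each passed it without 1 library, Aldh3a1 without shNdufa5_2 replicate 3 in PCM (-0.27, limma adjusted p = 0.0345) and Rdm1 without shNdufa5_1 replicate 2 in PCM (-0.33, adjusted p = 0.0119). Of the 15 rises ranked by size in shControl 13 were called lower in response with the hairpins, against 21.5% of all genes. Of the 15 falls 15 were called higher in response, against 17.2% of all genes. The ranked genes were chosen on the shControl libraries that enter that test. The direction of these 2 counts is therefore in part fixed by the choice, and the shares over all genes do not allow for it.

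List medians in the other cells are given side by side. Lists high or low in shControl enter the test through the same shControl libraries, so the direction of their counts is in part fixed too, and the shares over all genes do not allow for it. Of all genes 1902 were called higher and 2378 lower in response, but 7950 and 108 with library totals and 4067 and 1202 with fragment totals. The lysosomal median was 0.47 in shControl, 0.16 with shNdufa5_1 and 0.19 where the label was shNdufa5_2, with 22 of 33 genes called lower in response against 21.5% of all genes. The actin median was 0.42, 0.05 and 0.03, with 26 of 35 lower. The SR splicing median was -0.27, -0.24 and 0.04, with 13 of 28 called higher in response against 17.2% of all genes. Chemokine and cytokine genes kept positive medians of 0.43 and 0.20, with 4 of 18 called lower in response.

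**Figure D5:**
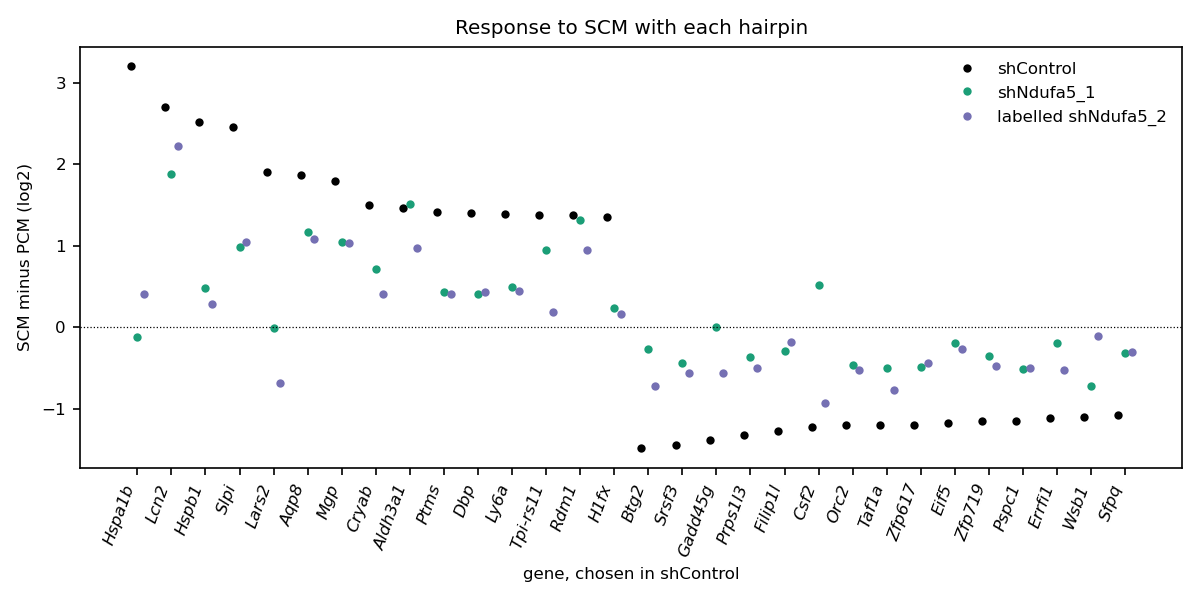
SCM minus PCM difference (log2, vertical axis) of the 30 genes ranked in shControl cells, in shControl (black), shNdufa5_1 (green) and the libraries labelled shNdufa5_2 (purple); points are limma estimates from 3 libraries per medium. Of the 15 rises 12 were called higher with shNdufa5_1 and 10 under the shNdufa5_2 label, while Hspa1b drops from 3.20 to -0.11 and 0.40. Of the 15 falls 12 and 13 were called lower. The shares of all genes called with each hairpin were not computed, so these counts cannot be read against them.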

How the data were processed

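RNA was extracted with Trizol and a column clean-up with DNase, and libraries were made with the NEBNext Ultra 2 kit, per the labels' protocols. The deposited FPKM values cover 54532 Ensembl mouse genes. The submitters' processing notes name STAR 2.6.1, DESeq2 and GRCm38. How fragments were counted, by which tool and whether by strand, is not given in the sources used here, so genes that overlap on opposite strands or have near-identical copies are uncertain. All 18 columns were matched to libraries by name, and no 2 libraries were identical. Depth was recovered from low values, which were whole multiples of a step (99.5 to 99.8% of values of at most 20 fragments within 0.1 fragments, for genes with 1 transcript), and the median-ratio factor of each library, over 12938 genes, was 1.008.

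Values were tested as log2(FPKM + 1) by limma 3.58.1 (R 4.3.3, data.table package 1.17.8), with 1 coefficient per group over all 18 libraries, a mean trend in the moderated variances, no replicate block and Benjamini-Hochberg adjustment over the 11084 genes whose mean FPKM reached 1. The 2 contrasts were SCM against PCM in shControl, and that response averaged over both hairpins minus the shControl response. Group permutations of 3 against 3 libraries cannot give a p below 0.1 and were not used. On data simulated for SCM against PCM in shControl (11084 genes, 200 changed) the fit recovered 73% of changes of log2 0.5 and 95.5% of log2 1, with 7 false calls each. The simulated noise was independent between genes, without GC or length trends. In the data 61.9% of genes were called, so these rates do not describe the comparison itself.

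The members and 72 gene lists were chosen with earlier results of these data known. Named genes were the 15 called rises and 15 falls of largest log2 size with groups that do not overlap, the 10 largest gains and losses in FPKM, and up to 4 called members per list and direction, or members that define a pathway or marker at any value. The 2 rankings passed over respiratory chain, ribosomal, mitochondrial genome, interferon and MHC class I genes, clone names and small RNAs. A few further members were named after their values were seen. GC content and exon length came from GENCODE for 99.9% of the genes tested. GC content was that of the longest transcript, and exon length the sum over all exons of a gene, overlaps counted once. Promoters came from RefSeq. Tables and figures used Python 3.11.15, pandas 2.3.3, scipy 1.17.1 and matplotlib 3.10.9. Alternatives were log2(FPKM + 0.1), a mean FPKM of at least 5, no filter, library and fragment totals (the latter chosen after seeing the data), quantile normalization, removal of GC and length trends, the 6 shControl libraries alone, a replicate block, a test against 1.2-fold and leaving out libraries.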

Additional observations from a re-analysis of the deposited data

Results flagged for a closer look

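Of the 30 genes ranked by size in shControl cells, 28 had a response to SCM that differed, by limma's test of the difference itself, between shControl and the mean of the cells with the hairpins against Ndufa5. Among the rises the difference of responses (hairpins minus shControl, log2) was -3.06 for Hspa1b, -2.25 for Lars2, -2.14 for Hspb1, -1.43 for Slpi and -1.16 for H1fx. It was -0.99 for Ptms, an acidic nuclear protein, -0.98 for Dbp, -0.93 for Cryab and -0.91 for Ly6a, a surface antigen of stem and progenitor cells. It was -0.81 for the pseudogene Tpi-rs11, -0.76 for Mgp, -0.74 for Aqp8 and -0.65 for Lcn2.

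Among the falls it was 1.10 for Gadd45g, 1.03 for Filip1l, 1.01 for Csf2, 0.99 for Btg2, 0.95 for Srsf3, 0.94 for Eif5 and 0.89 for Prps1l3. It was 0.77 for Sfpq, 0.75 for Errfi1, 0.74 for Zfp719, 0.73 for Zfp617, 0.70 for Orc2, 0.68 for Wsb1, 0.64 for Pspc1 and 0.57 for Taf1a, a factor of RNA polymerase I. Taken over all genes 38.6% were called by the same test, and the 30 genes were chosen on the shControl libraries that enter it. The call of Taf1a was lost without replicate 1 or 3 in PCM (0.53 and 0.58) and without replicate 1 or 2 in SCM (0.43 and 0.53) of shControl, without replicate 2 of both (0.55), and with log2(FPKM + 0.1) (0.61), no filter (0.57), quantile normalization (0.51) and the test against 1.2-fold (0.57). That of Tpi-rs11 was lost with library totals (-0.25), with GC and length trends removed (-0.49) and against 1.2-fold (-0.81). Those of Lcn2 (-0.09), Aqp8 (-0.16) and Mgp (-0.23) were lost with library totals.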

How the results depend on the processing

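Counts of genes called higher and lower were 3517 and 3346. They became 488 and 7805 with library totals, 1942 and 5409 with fragment totals (chosen after seeing the data) and 1674 and 1058 in the test against 1.2-fold. The other alternatives kept both within 1.5 times. Leaving out 1 shControl library at a time gave 3236 to 3385 and 3019 to 3152. For the difference of responses 4280 genes were called (1902 higher, 2378 lower), 8058 with library totals (7950 and 108), 811 against 1.2-fold and 3686 to 4258 with 1 library of the 18 left out. Same-numbered libraries did not deviate together from their group means (r from -0.09 to 0.06). The labels do not say what a number marks, and replicate 2 was the deepest library in both shControl groups. Whether same-numbered libraries were handled together was not tested. A replicate block gave 3492 and 3318 calls and 4176 for the difference of responses.

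Named genes that changed sign under library totals were Bcl3 (-0.02), Cope (-0.10), Ehmt2 (-0.06), Gabarap (-0.09), Msln (-0.05), Nono (-0.39), Nr4a1 (-0.02) and Pax8 (-0.23), all above the median gene's -0.50, and the difference of responses of Aldh3a1 became 0.35. Nono was -0.03 with fragment totals and -0.12 with quantile normalization, where Hsp90ab1 was -0.001. With GC and length trends removed Lamp2 was 0.13. The causes were not tested. Of 196 named genes 10 changed sign in at least 1 setting, and with GC and length trends removed 88 kept their sign but moved by over 1.5 times, as did 53 with quantile normalization, 40 with fragment totals and 171 with library totals, where 27 lost the call. Counting error at 15.2 to 38.9 M fragments limits low genes most, Hspa1a with at most 33 fragments among them.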

Other observations

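Families gathered by symbol are read against the shares of all genes, 31.7% higher and 30.2% lower. Solute carriers and Mediator subunits were near these shares. Mitochondrial ribosomal proteins, which translate the mitochondrial genome, had 48 of 79 called higher and 11 lower (median 0.27), from Mrps24 at 1.03 to Mrps2 at -0.75. Solute carriers had 51 higher and 52 lower of 160, from Slc25a23, a mitochondrial ATP-magnesium carrier (0.999), to Slc25a40 (-0.88). Rab GTPases, which direct vesicles, had 14 higher and 16 lower of 43, and the near relatives Rab1b and Rab1a went in opposite directions: Rab1b read 110.03, 112 and 103 FPKM in PCM and 191, 188 and 186 in SCM, and Rab1a 50.9, 51.9 and 53.1 and 38.8, 38.6 and 37.7. Kinesins had 10 higher and 6 lower of 29, with the mitotic motor Kif20a at 0.68 and the cargo motor Kif5b at -0.40. F-box genes had 10 and 17 of 48, and Tmem genes 51 and 33 of 141. Integrator subunits, which end short transcripts, had 2 higher and 6 lower of 15 (4 and 3 with GC and length trends removed), and Mediator subunits 8 and 9 of 28, with Med7 going from 4.54, 4.03 and 4.68 to 1.94, 2.06 and 2.38 FPKM.

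Genes of transport into and out of the endoplasmic reticulum moved in both directions. Genes of protein entry and N-glycosylation had 14 higher and 6 lower of 32 (median 0.09, -0.09 with quantile normalization), with the oligosaccharyltransferase genes Tmem258 (0.74) and Ddost (0.69) foremost. In the COPI and COPII coats 9 were higher and 13 lower of 28. The coatomer genes Arcn1 (-0.58) and Copb1 (-0.48) fell and Cope (0.50) of the same complex rose.

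Processed pseudogenes, copies without introns whose fragments can come from the parent gene, were called higher in 36.6% and lower in 6.58% of 547 tested, against 32.6% and 32.5% of 9913 protein-coding genes. In the quintile of all genes with the shortest summed exon length the shares were 41.6% and 7.81%. The part of length in the pseudogene shares was not tested. Of the 254 rises of at least 2-fold, 62 were in this class and 162 in protein-coding genes. Of the 37 falls of at least 2-fold, 26 were in protein-coding genes.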
